A study of Mus musculus with 19 samples.

Results

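Inguinal fat of tumour-bearing mice given an FGF21 AAV was compared with that of tumour-bearing mice given a control AAV, as 5 libraries against 5 among the 19 of the series. An AAV is an adeno-associated virus, here injected intravenously to deliver the gene of the hormone FGF21. The members were taken by group label alone, and 17013 of the 24844 genes in the deposited table passed the filter on low values and were tested. All mice were wild-type C57BL/6JRj kept at 29 °C, at thermoneutrality, and libraries came from whole inguinal fat. Both groups received CHX207 fibrosarcoma cells in the right gastrocnemius muscle 9 days after the virus, and tissue was taken 14 days after the cells. Efruxifermin, an engineered FGF21 protein, was given at 2 mg/kg in 6 injections to the tumour-bearing mice behind 5 further libraries, without mention of a virus in their labels. Healthy libraries (n = 4) are from mice with no tumour that received the control AAV and PBS. The labels give neither the promoter and cell type that the FGF21 AAV drives nor the time of day at which tissue was taken.

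FGF21 is secreted mainly by the liver and acts on cells that carry beta-klotho (Klb) together with an FGF receptor, in fat chiefly Fgfr1. In white fat it is known for its effects on lipid uptake and storage, glucose uptake and the release of adiponectin. White fat stores fatty acids as triglyceride and releases them by lipolysis, and tumour cachexia is known for loss of that store. At thermoneutrality the thermogenic program of fat, marked by Ucp1, is normally quiet.

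Libraries held 2011067 to 3209666 reads with FGF21 AAV and 2106634 to 3693864 reads with control AAV, in which 14078 to 16751 and 14612 to 16125 genes were detected. By an exact two-sided permutation test, p was 0.706 for depth and 0.643 for genes detected (n = 5 each, smallest possible p 0.00794, adjusted p = 0.706 for both over the 4 measures of this paragraph). Gm42418, which overlaps ribosomal RNA, took 9.34 ± 4.94% of reads with FGF21 AAV and 5.97 ± 2.00% with control AAV (SD, n = 5 each, exact permutation p = 0.198, adjusted 0.460). Mitochondrial genes took 10.1 ± 2.25% of reads with FGF21 AAV and 7.53 ± 3.90% with control AAV (exact permutation p = 0.230, adjusted 0.460).

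The tissue label was checked with 18 adipocyte markers, among them Adipoq, Plin1, Pparg, Lep, Lpl and Fabp4. None of these 18 markers was at 0 in any FGF21 AAV library, and 1 was at 0 in control AAV library 4. Their score, the mean log2(RPM + 1), was 9.68, 8.83, 8.66, 9.15 and 9.93 in FGF21 AAV libraries 1 to 5, against 6.92, 5.6, 8.0, 7.43 and 8.43 in control AAV libraries 1 to 5. The groups did not overlap, and healthy libraries lay at 8.51 to 9.69. The markers summed to 25719 to 60804 RPM with FGF21 AAV and 2915 to 20991 RPM with control AAV. In bulk tissue, fewer cells of a type and less RNA per cell cannot be told apart.

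RNA of neighbouring tissues also differed between libraries. The B cell score was 6.66, 1.03, 4.5, 1.0 and 1.61 with FGF21 AAV, against 8.14, 8.24, 7.43, 0.797 and 6.97 with control AAV, so that 2 of 5 FGF21 AAV libraries and 4 of 5 control AAV libraries had a score above 3. Those libraries are called B cell-rich here. The T and NK cell score was high in FGF21 AAV library 1 (5.17) and in every control AAV library but the fourth (0.317). FGF21 AAV library 3, B cell-rich, had a T and NK cell score of 1.30, near the 1.27 and 1.32 of libraries 4 and 5, and its node stroma and germinal centre genes summed to 755 RPM, against 3243 RPM in library 1. Comparisons of B cell-rich libraries (2 against 4) rest on it. Of the 18 B cell markers, 12, 13 and 7 were at 0 in FGF21 AAV libraries 4, 2 and 5, and 13 were at 0 in control AAV library 4. That control library was rich in skeletal muscle RNA instead (score 10.7), while the others of both groups had muscle scores of 1.11 to 6.11. The summed B cell markers reached 69.8 to 2439 RPM with FGF21 AAV and 55.8 to 7679 RPM with control AAV, and the summed muscle markers 116 to 3688 RPM with FGF21 AAV and 179 to 146884 RPM with control AAV. The part of the adipocyte, lymphoid and muscle RNA in the results that follow was not tested beyond the values given beside them.

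**Figure D1:**
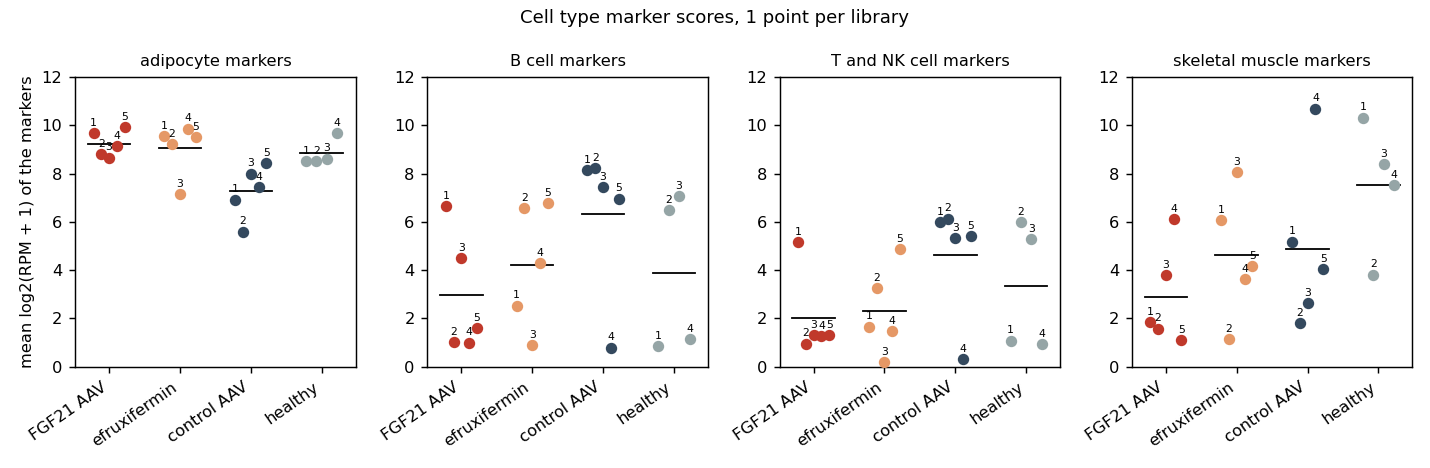
Mean log2(RPM + 1) of adipocyte, B cell, T and NK cell and skeletal muscle markers in each library, numbered by replicate, with the group mean as a line. Adipocyte scores of the 5 FGF21 AAV libraries (8.66 to 9.93) lie above those of the 5 control AAV libraries (5.60 to 8.43), and control AAV library 4 combines a low B cell score (0.797) with the highest muscle score (10.7).

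With FGF21 AAV 88 genes were higher and 8 lower than with control AAV, 96 in all, by limma on log2(RPM + 1) at a Benjamini-Hochberg adjusted p under 0.05. A gene past this threshold is called here. The calls were 0.564% of the genes tested, 0.517% as higher and 0.047% as lower ones. At an unadjusted p under 0.05 there were 2715 genes, 8.82% of those tested as higher and 7.14% as lower ones. The 5 FGF21 AAV libraries lay wholly above the 5 control AAV libraries for 461 genes (2.71% of those tested) and wholly below them for 106 (0.623%). Of the 96 called genes 85 did not overlap between the groups. The 96 were called on these same libraries, and for the 85 any subset of the libraries must keep the direction. All 96 kept their direction in the B cell-rich libraries alone (2 against 4), in the rest (3 against 1) and with the adipocyte score as a covariate. Few passed the threshold in those limma fits: 1 (Alb), 0 (with 1883 at an unadjusted p under 0.05) and 2 (Alb and Hpx).

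The number of calls rested on single libraries. It was 8 without control AAV library 1 or 2, and 19, 9, 7 and 8 without FGF21 AAV libraries 2, 3, 4 and 5. It was 215 without control AAV library 5, and 1015 (424 higher and 591 lower) without control AAV library 4, the muscle-rich one. By edgeR on reads recovered from the RPM values 8 genes were called, all of them among the 96: Alb, Hpx, Ttr, Npr3, Nnat, Tspan4 and Dbp as higher and Mef2c as lower. The calls that held under the most of 28 other settings were Alb (27), Npr3, Nnat and Tspan4 (24 each), Hpx and Per3 (23 each), Mef2c (22) and Adh1 (20). DESeq2 gave no adjusted p for Hpx, which counts there as not held. edgeR called no gene beyond those 8, on the lists below either. DESeq2 on the same reads called 303 genes higher and 185 lower of all 17013 tested. Counts per list below are to be read beside these totals and the shares at an unadjusted p given above.

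**Figure D2:**
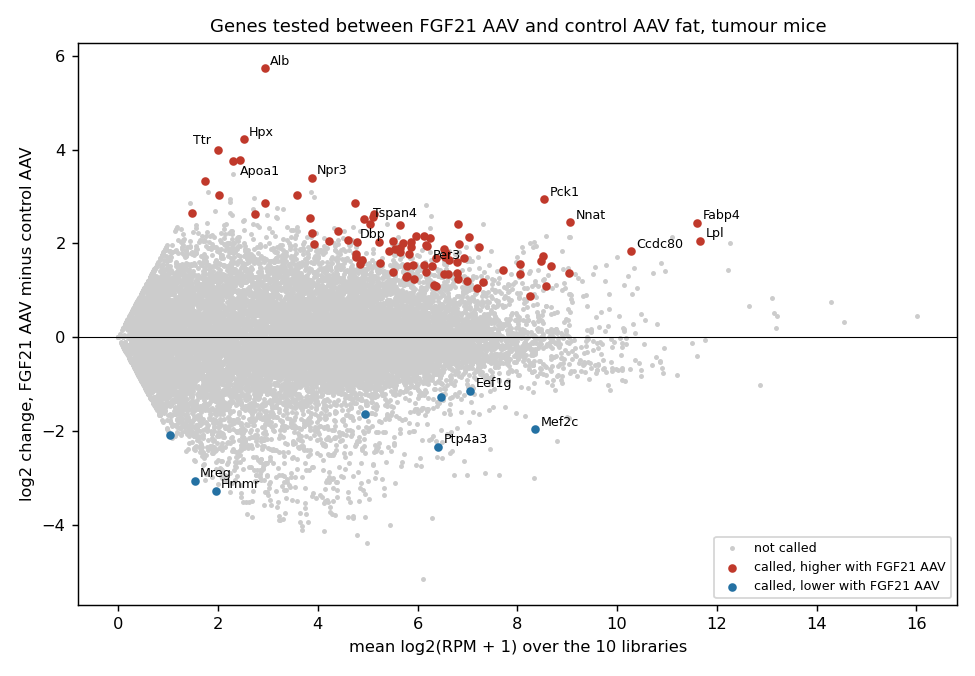
Log2 change between FGF21 AAV and control AAV fat against mean level for the 17013 genes tested, with the 88 called higher in red, the 8 called lower in blue and some of them named. Alb has the highest log2 change (5.74), and Fabp4 and Lpl are among the most abundant called genes.

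Fgf21 itself had no read in the FGF21 AAV libraries, which allows up to 0.228 RPM over the group (3 reads, counting error only), and 2 reads in control AAV library 2. Whether a transcript of the virus would be counted under that name was not tested. Its receptor Fgfr1 stood at 84.5, 161, 133, 163 and 136 RPM with FGF21 AAV, against 33.2, 28.4, 50.9, 75.8 and 53.4 RPM with control AAV. Every FGF21 AAV library was above every control AAV library, a rise of 1.51 ± 0.32 on the log2 scale (SE, limma adjusted p = 0.0325). The change was 1.33 with the adipocyte score as a covariate, 0.96 with the scores of B cells and muscle in the model, 0.99 with the T and NK score and 1.00 in the libraries that were not B cell-rich, and was called in none of these fits. Efruxifermin fat averaged 121 ± 26.4 RPM (SD, n = 5) and healthy fat 129 ± 66.4 RPM (SD, n = 4), so FGF21 AAV fat was near both.

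The co-receptor Klb had 15.1, 0.994, 4.95, 6.23 and 4.13 RPM with FGF21 AAV, against 3.32, 1.51, 6.67, 0.812 and 0 RPM with control AAV. These low levels overlapped, with a log2 change of 1.11 ± 0.94 (adjusted p = 0.602), and the sign turned with the adipocyte covariate (-0.48). Fgfr2 averaged 215 ± 103 RPM with FGF21 AAV and 86.3 ± 33.1 RPM with control AAV (SD, n = 5 each) and was not called (log2 1.26 ± 0.40, adjusted p = 0.126). Of the 5 tested genes of the receptor list, 1 was called.

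Of 17 feedback targets of FGF and ERK signalling none was called (1 higher and 0 lower at an unadjusted p under 0.05, 0 and 0 by DESeq2). Their median log2 change was 0.43, against -0.05 over all genes tested. Dusp4, a phosphatase that acts on MAP kinases, came nearest, at 12.9, 37.3, 16.3, 20.6 and 31.1 RPM with FGF21 AAV, against 2.37, 0.757, 7.02, 10.8 and 5.85 RPM with control AAV. Its groups did not overlap, at log2 2.14 ± 0.55 with an adjusted p of 0.0705. Healthy fat, at 3.16, 3.71, 4.68 and 7.33 RPM, was near control AAV fat. Fos, an immediate early gene, gave 1.14 ± 0.59 and Spred3, an ERK pathway inhibitor, 1.32 ± 0.70 (log2, SE, adjusted p = 0.353 and 0.363).

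Lpl, Fabp4 and Lrp1, which bring lipid into adipocytes, rose with FGF21 AAV. They were the 3 called of 18 genes of lipoprotein lipase and fatty acid uptake, which had a median log2 change of 1.47. Lpl, the lipase that frees fatty acids from circulating lipoproteins, had 7045, 7042, 5289.8, 5749 and 8391 RPM with FGF21 AAV, against 1123, 504, 2326, 2249.7 and 3342 RPM with control AAV. The lowest FGF21 AAV library lay above the highest control AAV library (log2 2.06 ± 0.45 SE, adjusted p = 0.038). Fabp4, the cytosolic fatty acid carrier, had 9617, 5731, 5039.9, 5604 and 12900.5 RPM with FGF21 AAV, against 1307, 406, 2394, 1417 and 2396 RPM with control AAV (log2 2.44 ± 0.53 SE, adjusted p = 0.0366). Lrp1, an endocytic lipoprotein receptor, was even across FGF21 AAV libraries, at 159, 148, 120.3, 149.5 and 169 RPM, against 40.8, 26.1, 72.6, 45.8 and 54.2 RPM with control AAV (log2 1.68 ± 0.35 SE, adjusted p = 0.0325). The 3 log2 changes were 0.47, 0.36 and 0.47 with the adipocyte covariate. The fatty acid transporter Cd36 averaged 556 ± 225 RPM with FGF21 AAV and 187 ± 139.8 RPM with control AAV (SD, n = 5 each), with overlapping libraries and no call (adjusted p = 0.0823). Its log2 change was 1.83, and -0.17 with the covariate.

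Caveolae are membrane pits that are dense on adipocytes. All 8 of their tested genes had a positive log2 change (median 1.40), and 2 were called. Cavin2, a coat protein, had 504, 519, 660.3, 693 and 810.3 RPM with FGF21 AAV, against 159, 90.0, 301, 188 and 418 RPM with control AAV, without overlap (log2 1.63 ± 0.33 SE, adjusted p = 0.0325). Cav1, their structural protein, had 308, 194, 139, 182 and 397 RPM with FGF21 AAV, against 62.2, 18.9, 70.2, 57.4 and 115 RPM with control AAV (log2 2.00 ± 0.47 SE, adjusted p = 0.0498). Ehd2, an ATPase at the caveolar neck, also did not overlap but missed the threshold (log2 1.46 ± 0.36 SE, adjusted p = 0.0592).

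Among the 24 genes of lipolysis and its control 3 were called, all higher, with a median log2 change of 1.25. The called genes are receptors and a kinase subunit. At an unadjusted p under 0.05 by limma, 15 of the 24 were higher and 0 lower, and DESeq2 called 11 higher and 0 lower. The lipases Lipe and Pnpla2, not called, are among the 18 adipocyte markers. All 18 were higher at an unadjusted p under 0.05 (log2 change 1.14 or more). Npr3, the receptor that clears natriuretic peptides, which drive lipolysis in human fat, had 60.4, 54.7, 47, 34 and 41.9 RPM with FGF21 AAV, against 1.9, 0.757, 4.91, 9.2 and 5.07 RPM with control AAV. The groups were far apart (log2 3.40 ± 0.49 SE, adjusted p = 0.00216). With the adipocyte covariate the log2 change was 1.94 (unadjusted p = 0.000643), and it was 3.88 in the B cell-rich libraries and 2.10 in the rest, called in none of these fits. Efruxifermin fat averaged 78.6 ± 33.8 RPM (SD, n = 5) and healthy fat 31.7 ± 14.8 RPM (SD, n = 4).

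Adora1, the adenosine receptor that restrains lipolysis, had 91.7, 74.6, 33.2, 61.4 and 129 RPM with FGF21 AAV, against 9.49, 8.7, 8.77, 3.25 and 21.4 RPM with control AAV (log2 2.86 ± 0.66 SE, adjusted p = 0.046). Prkar2b, the regulatory subunit of protein kinase A that predominates in fat, had 290.4, 169.6, 173, 244 and 549 RPM with FGF21 AAV, against 32.3, 14.4, 73.7, 75.8 and 88.9 RPM with control AAV (log2 2.42 ± 0.50 SE, adjusted p = 0.0325). Neither overlapped, and with the adipocyte covariate their log2 changes were 0.98 and 0.41. None of 14 lipid droplet proteins was called (median log2 0.98, 8 higher and 0 lower at an unadjusted p under 0.05, 4 and 0 by DESeq2). Plin1, the coat that gates lipolysis, had 1237, 401, 298, 589 and 1348 RPM with FGF21 AAV, against 141, 59.8, 233, 181 and 288 RPM with control AAV. It did not overlap and missed the threshold (log2 2.03 ± 0.50 SE, adjusted p = 0.0577). Acsl1, an acyl-CoA synthetase, and Cidec, which enlarges droplets, gave log2 changes of 2.14 ± 0.52 and 2.16 ± 0.52 (SE, adjusted p = 0.0552 and 0.0554).

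Triglyceride assembly and glyceroneogenesis had 2 called genes of 17, and all 17 members had a positive log2 change (median 1.18). Pck1, which makes the glycerol backbone from pyruvate in fasting fat, had 1783, 698, 453, 1017 and 2021 RPM with FGF21 AAV, against 102, 59.8, 332, 118 and 172 RPM with control AAV. Control AAV library 3 came nearest to the FGF21 AAV libraries, which all stayed above it (log2 2.95 ± 0.57 SE, adjusted p = 0.0296). Pck1 had a log2 change of 0.89 with the adipocyte covariate (unadjusted p = 0.0546). Aqp7, the glycerol channel, had 137, 72.6, 59.9, 74.2 and 182 RPM with FGF21 AAV, against 19.9, 9.46, 44.6, 24.1 and 44.8 RPM with control AAV (log2 1.91 ± 0.40 SE, adjusted p = 0.0325). Dgat1, which adds the last fatty acid, was not called (log2 1.31 ± 0.36 SE, adjusted p = 0.0852).

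None of 19 genes of de novo lipogenesis was called (median log2 0.96, 6 higher and 0 lower at an unadjusted p under 0.05, 1 and 0 by DESeq2). Scd1, the stearoyl-CoA desaturase, had 8707, 3517, 3023, 3314 and 6691 RPM with FGF21 AAV, against 1074, 464, 919.5, 1339.8 and 2008 RPM with control AAV. The groups did not overlap, at log2 2.14 ± 0.57 (SE, adjusted p = 0.0738). Acaca and Acacb, the acetyl-CoA carboxylases, gave 1.49 ± 0.55 and 1.54 ± 0.49 (log2, SE, adjusted p = 0.19 and 0.136). With the adipocyte covariate the median of the list was -0.70, below 0. None of 20 adipocyte transcription factors was called (6 higher and 1 lower at an unadjusted p under 0.05, 2 and 0 by DESeq2). Pparg, the master regulator of adipocytes, had 148, 53.2, 53.5, 95.3 and 204 RPM with FGF21 AAV, against 16.6, 1.14, 33.3, 20.3 and 70.6 RPM with control AAV, with overlap (log2 2.42 ± 0.70 SE, adjusted p = 0.102, -0.44 with the covariate).

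Secreted adipocyte factors had 5 called genes of 21, all higher, with a median log2 change of 1.63. Nnat, neuronatin, a small membrane protein of the endoplasmic reticulum listed there as an adipose gene, had 628, 1412, 1556, 1634 and 1343 RPM with FGF21 AAV, against 146, 193, 349, 278 and 225 RPM with control AAV. Even FGF21 AAV library 1, far below the other FGF21 AAV libraries, exceeded every control AAV library (log2 2.45 ± 0.34 SE, adjusted p = 0.00188). Its log2 change was 1.96 with the adipocyte covariate (unadjusted p = 0.000149). Rbp4, the retinol carrier, had 185, 74.6, 78.7, 82.6 and 209.6 RPM with FGF21 AAV, against 23.3, 6.43, 29.1, 21.4 and 40.2 RPM with control AAV (log2 2.39 ± 0.49 SE, adjusted p = 0.0325). Ccdc80, a secreted matrix-binding protein, gave log2 1.83 ± 0.38 (adjusted p = 0.0325). Sncg, gamma-synuclein, gave log2 1.78 ± 0.42 (adjusted p = 0.0498), with a mean in FGF21 AAV fat of 116 RPM that stayed below the 223 RPM of healthy fat.

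Lep encodes leptin, the satiety hormone whose level follows fat mass. It had 86.6, 48.7, 67.8, 60.1 and 109 RPM with FGF21 AAV, against 10.9, 1.89, 14, 18.4 and 31.6 RPM with control AAV. All FGF21 AAV libraries were above all control AAV libraries (log2 2.52 ± 0.59 SE, adjusted p = 0.0483), and with the adipocyte covariate the log2 change was 0.35. Adipoq, adiponectin, had 2017, 763, 516, 1077 and 1942 RPM with FGF21 AAV, against 260.1, 58.6, 532, 259 and 452 RPM with control AAV. FGF21 AAV library 3 fell just under control AAV library 3, and the gene was not called (log2 2.15 ± 0.58 SE, adjusted p = 0.0807, -0.25 with the covariate). The Lep promoter is shown because it was the only promoter of a called gene that held TTGCGCAA, the palindrome bound by C/EBP factors of adipocytes, which was in 0.347% of tested genes. It is the RefSeq window from 250 bases before to 50 after the start site (GRCm38.p6, plus strand, chr6:29059971-29060270), with the palindrome in capitals, 55 bases before the start.
Lep: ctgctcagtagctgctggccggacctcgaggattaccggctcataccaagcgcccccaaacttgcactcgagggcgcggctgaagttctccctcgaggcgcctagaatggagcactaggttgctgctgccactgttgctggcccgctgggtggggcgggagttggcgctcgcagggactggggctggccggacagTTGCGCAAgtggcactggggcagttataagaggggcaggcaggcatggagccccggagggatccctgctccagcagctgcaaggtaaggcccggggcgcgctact

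**Figure D3:**
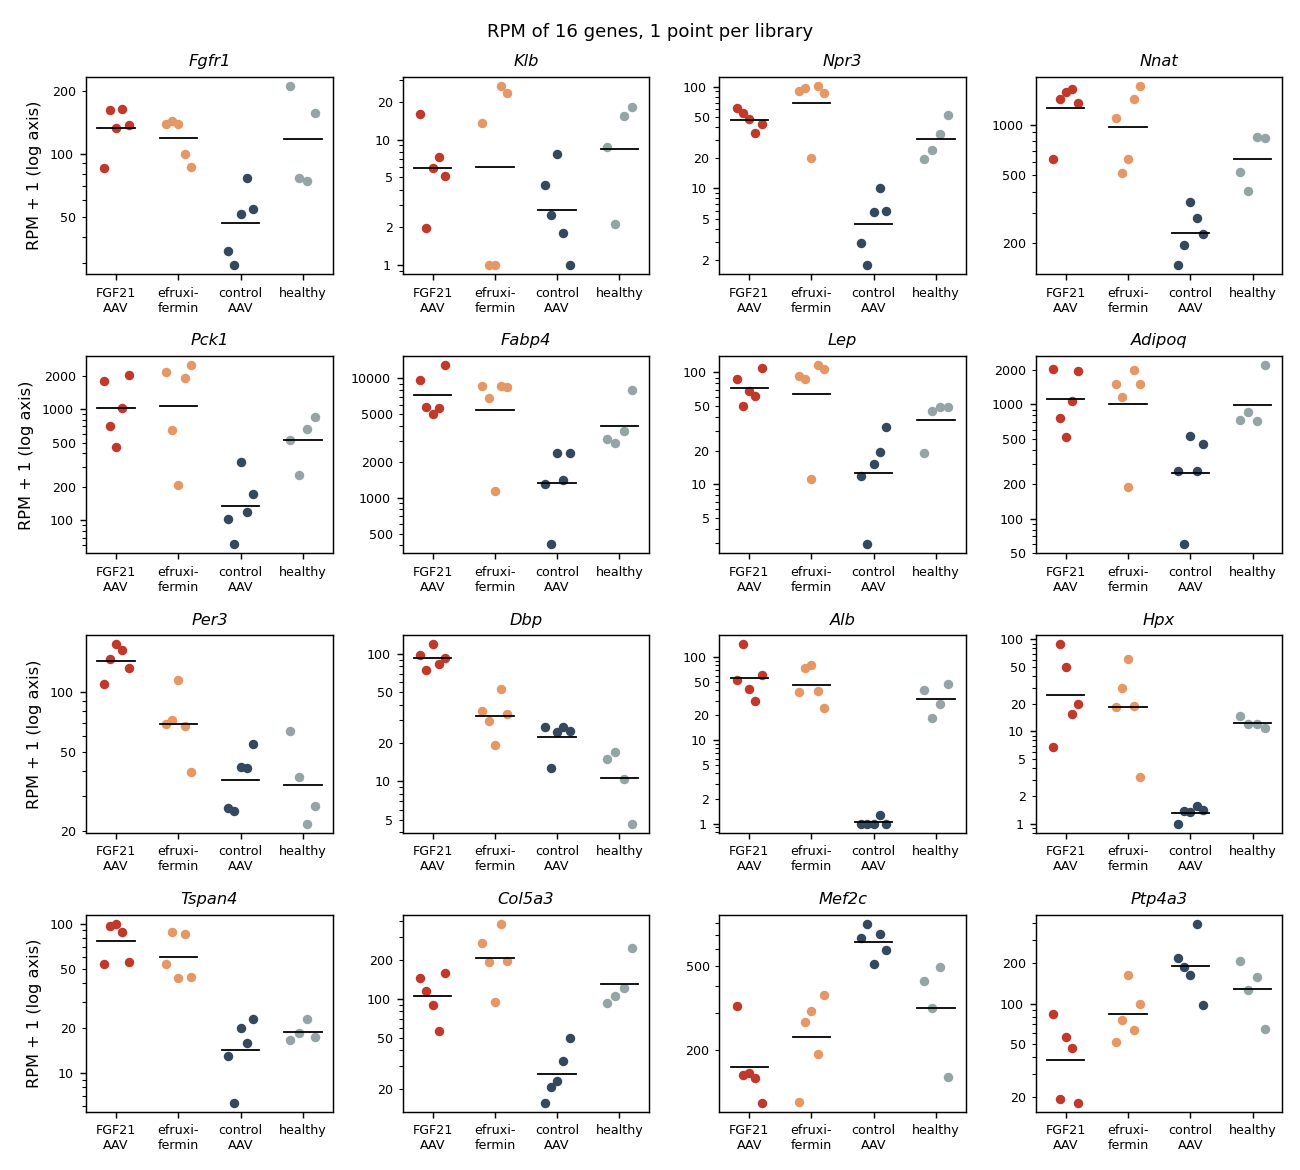
RPM + 1 on a log axis for 16 genes, 1 point per library, with the geometric mean of each group as a line. Npr3, Nnat, Pck1, Alb, Per3 and Dbp are higher in all 5 FGF21 AAV libraries than in all 5 control AAV libraries, Mef2c and Ptp4a3 are lower in all of them, and Klb and Adipoq overlap.

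Lpl, Fabp4 and Lep are also the 3 called genes among 18 adipocyte markers, all of which had a positive log2 change (median 2.01, range 1.14 to 2.74). The score of these markers holds Lpl, Fabp4, Lep, Adipoq, Pparg and Plin1 themselves, so as a covariate it takes out part of their change by construction. Through shared members this reaches the medians of several lists. Examples are Lpl and Fabp4 for uptake, Lipe and Pnpla2 for lipolysis, Plin1 and Cidec for lipid droplet proteins, and Lep for secreted factors. With the score of these markers as a covariate, a fit chosen after the data were seen, the median change was 0.13 for uptake, 0.26 for caveolae, 0.07 for lipolysis and -0.11 for triglyceride assembly. It was 0.35 for secreted factors, 0.54 for clock genes and 1.97 for liver-type plasma proteins. The median over all genes tested was -0.15 in that fit. Of the 96 called genes 56 kept an unadjusted p under 0.05 there. For uptake, lipolysis, triglyceride assembly and secreted factors, the medians were 1.00, 1.13, 1.16 and 1.67 in the B cell-rich libraries and 1.45, 1.34, 1.17 and 1.06 in the rest. With the scores of B cells and muscle in the model they were 0.86, 0.81, 0.75 and 1.38. Without control AAV library 4 these lists had 8, 11, 5 and 10 called genes, in the order named. In that fit 1015 of all 17013 genes tested were called, 424 of them higher. Over all genes tested the median was -0.05 in the B cell-rich libraries and 0.34 in the rest, which hold 1 control AAV library. With the scores of B cells and muscle it was 0.13.

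**Figure D4:**
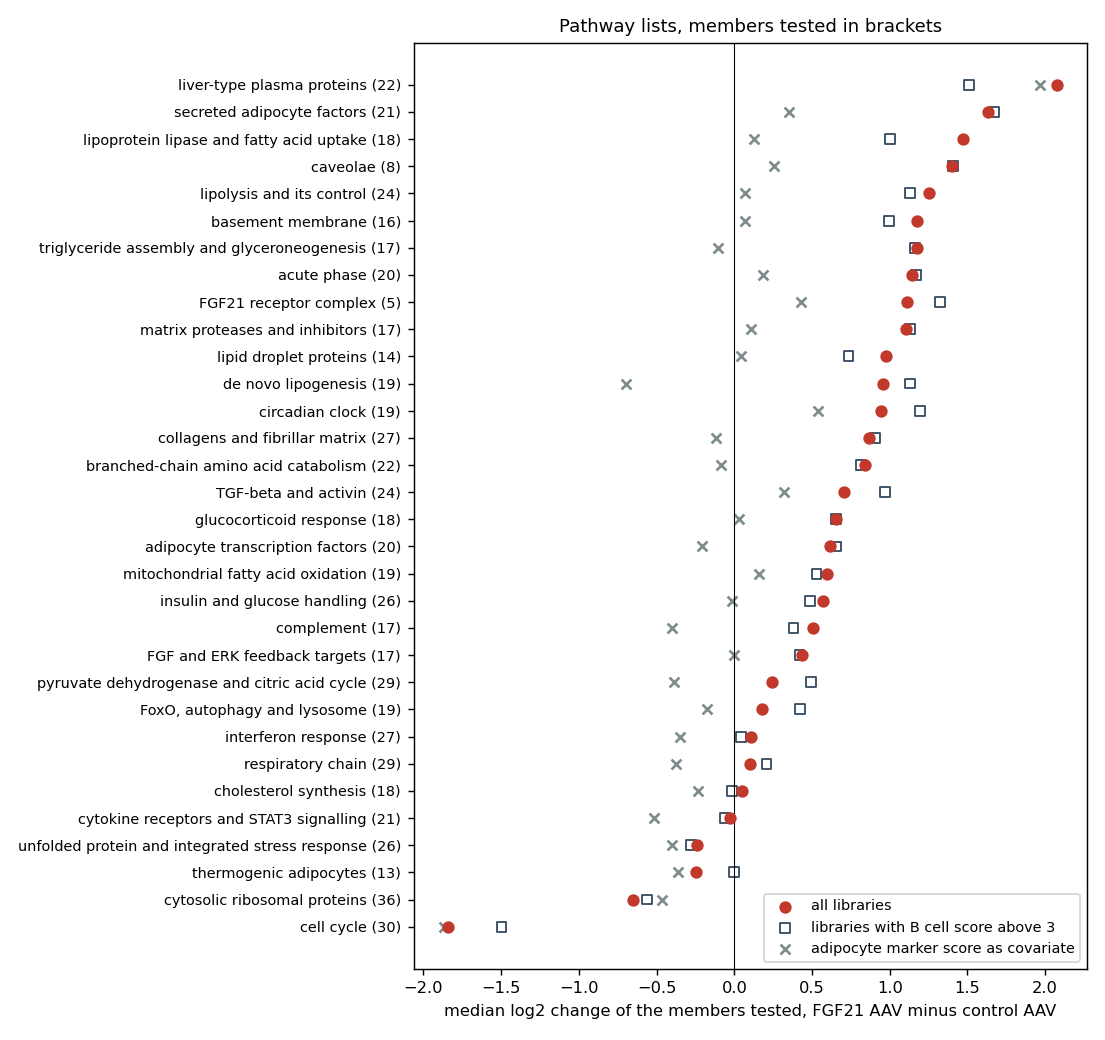
Median log2 change of the tested members of 32 pathway lists between FGF21 AAV and control AAV, in all libraries (filled), in the B cell-rich ones (squares) and with the adipocyte score as a covariate (crosses). Liver-type plasma proteins have the highest median (2.08) and stay near it with the covariate (1.97). Most lipid lists, some of which share members with the adipocyte score, lie near 0 with it (de novo lipogenesis at -0.70). Cell cycle genes are at -1.84 in all libraries and -1.87 with the adipocyte score. In fits not drawn they are at -0.73 with the B cell and muscle scores and -0.56 with the T and NK score.

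Dbp and Per3 of the circadian clock rose with FGF21 AAV. Dbp, a D-box binding transcription factor whose level swings with the time of day, had 96, 73.1, 117, 81.6 and 92.1 RPM with FGF21 AAV, against 25.6, 11.7, 23.2, 25.7 and 23.8 RPM with control AAV. The lowest FGF21 AAV library was above the highest control AAV library by a wide margin (log2 2.05 ± 0.37 SE, adjusted p = 0.0227). Per3, a period gene of the feedback loop, had 108, 144, 171, 159.8 and 130.2 RPM with FGF21 AAV, against 25.2, 24.2, 41, 40.3 and 53.8 RPM with control AAV, again without overlap (log2 1.97 ± 0.33 SE, adjusted p = 0.0107). With the adipocyte covariate their log2 changes were 1.67 and 2.10 (unadjusted p = 0.00262 and 7.91e-05), in the B cell-rich libraries 2.34 and 1.97, and in the rest 1.63 and 1.81.

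Of 19 clock genes 2 were called, 16 had a positive log2 change, and the median was 0.94. Per2 had 41, 74.1, 107, 99.1 and 95 RPM with FGF21 AAV, against 22.3, 15.5, 36.8, 16.8 and 51.1 RPM with control AAV, and missed the threshold (log2 1.59 ± 0.46 SE, adjusted p = 0.103). The other members, named after their values were seen, were not called. Tef and Hlf, relatives of Dbp, gave 1.03 ± 0.33 and 2.35 ± 0.90 on the log2 scale (SE, adjusted p = 0.128 and 0.204). Nr1d1 and Nr1d2, repressors of the loop, gave 1.19 ± 0.40 and 0.94 ± 0.37 (SE, adjusted p = 0.151 and 0.221). Arntl, the activator whose phase is opposite to that of Dbp, gave -1.26 ± 0.53 (SE, adjusted p = 0.251), the lowest value of the list.

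Dbp averaged 92 ± 16.7 RPM with FGF21 AAV and 33.2 ± 12.2 RPM with efruxifermin (SD, n = 5 each), a log2 difference of 1.50 ± 0.37 (SE, unadjusted p = 0.000525) that is not called (adjusted p = 0.70). For Per3 the means were 143 ± 24.8 RPM with FGF21 AAV and 71.5 ± 27.1 RPM with efruxifermin, a log2 difference of 1.05 ± 0.33 (SE, unadjusted p = 0.00358, adjusted p = 0.70). Both were called higher than in healthy fat, which had 14.1, 16, 9.35 and 3.66 RPM of Dbp (log2 3.12 ± 0.40 SE, adjusted p = 0.000788) and 62.6, 36.4, 20.9 and 25.6 RPM of Per3 (log2 2.05 ± 0.34 SE, adjusted p = 0.0352). They were the only called genes of that comparison, 0.0118% of those tested. At an unadjusted p under 0.05 there were 908 genes (5.34%), and edgeR called Dbp alone and DESeq2 6 of its own calls against control AAV. Dbp alone kept both its calls without control AAV library 3 or FGF21 AAV library 2, Per3 alone without control AAV library 1, and neither without FGF21 AAV library 3, 4 or 5. Without FGF21 AAV library 1 there were 5 such genes, Tmprss2, Tspan4 and Gm13570 with them.

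**Figure D5:**
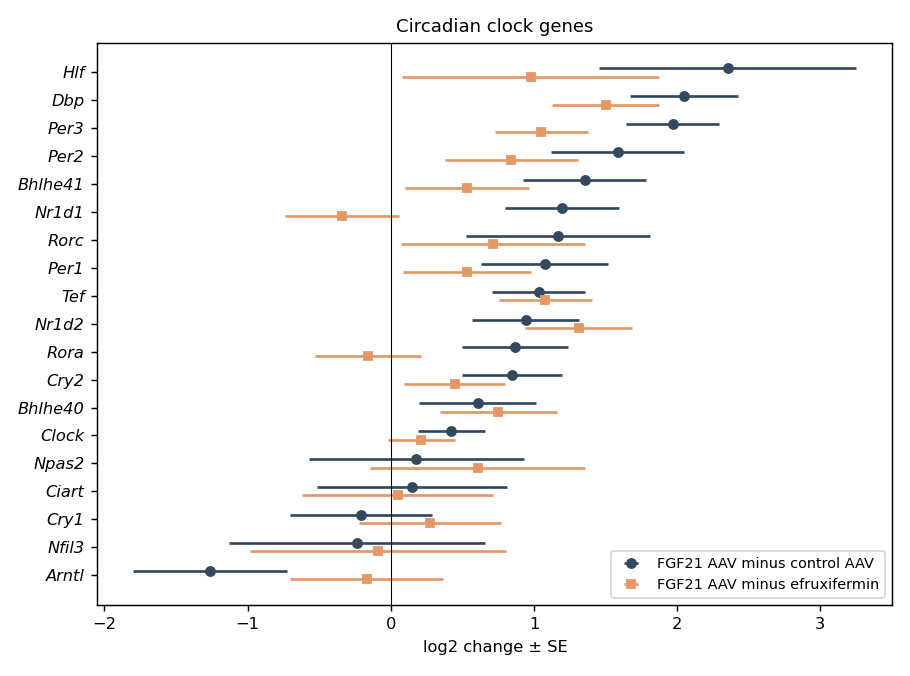
Log2 change with its SE for 19 clock genes between FGF21 AAV and control AAV (circles) and between FGF21 AAV and efruxifermin (squares). Both contrasts use the same FGF21 AAV libraries, Dbp and Per3 are called in the first and no gene is called in the second, and Arntl has the lowest value (-1.26) in the first.

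The D-box, the motif that Dbp, Tef and Hlf bind, was searched as TTATGTAA on both strands in the RefSeq promoter windows of the called genes, 70 of 96 of which have one. It was found in 3 of 66 called higher genes (4.55%), against 0.745% of 11814 tested genes and 1.11% of all 27025 genes in the table, and in none of 4 called lower genes. The 3 were Per3, Alb (albumin) and H6pd (hexose-6-phosphate dehydrogenase of the endoplasmic reticulum, named after its values were seen). The window of Dbp itself held none. Shown with D-boxes in capitals (GRCm38.p6, 250 bases before to 50 after the start site), the windows are those of Per3 (minus strand, chr4:151044616-151044915, motifs 205 and 158 bases before the start), Alb (plus strand, chr5:90460620-90460919, 223 and 204 bases before, the second on the other strand) and H6pd (minus strand, chr4:150003187-150003486, 63 bases before).
Per3: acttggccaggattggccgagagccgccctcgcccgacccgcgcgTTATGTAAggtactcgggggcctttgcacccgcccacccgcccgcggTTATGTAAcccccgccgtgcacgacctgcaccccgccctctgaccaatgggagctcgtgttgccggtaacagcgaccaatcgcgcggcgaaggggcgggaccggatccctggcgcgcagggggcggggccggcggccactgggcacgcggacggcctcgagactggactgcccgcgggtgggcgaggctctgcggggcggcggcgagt
Alb: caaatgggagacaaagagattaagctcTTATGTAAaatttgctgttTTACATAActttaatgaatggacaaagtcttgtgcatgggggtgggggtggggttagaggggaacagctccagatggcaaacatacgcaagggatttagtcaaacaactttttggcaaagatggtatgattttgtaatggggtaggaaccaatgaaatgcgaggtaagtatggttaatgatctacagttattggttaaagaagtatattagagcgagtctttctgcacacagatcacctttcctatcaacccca
H6pd: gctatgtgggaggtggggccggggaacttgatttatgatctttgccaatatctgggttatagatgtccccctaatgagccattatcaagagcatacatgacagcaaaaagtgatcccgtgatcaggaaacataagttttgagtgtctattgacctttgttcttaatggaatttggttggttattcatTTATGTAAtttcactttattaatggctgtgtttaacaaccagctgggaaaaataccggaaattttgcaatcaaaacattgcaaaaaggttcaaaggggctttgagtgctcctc
These matches describe letters, not bound sites, and none overlapped a match of another motif searched. H6pd had 109.6, 82.5, 73.3, 85.4 and 124 RPM with FGF21 AAV, against 23.3, 26.9, 13.7, 24.6 and 54.2 RPM with control AAV (log2 1.81 ± 0.40 SE, adjusted p = 0.045).

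The E-box CACGTG, bound by the Clock and Arntl pair, was in 12.1% of the 66 called higher genes and 11.2% of the tested genes, shares that are close. The CCAAT box was in 42.4% of the called higher genes and 42.5% of the tested genes, TATAAA in 6.06% and 9.63% of them, and the cyclic AMP response element TGACGTCA in 1.52% and 3.29%. All were searched on both strands of the same windows. The direct repeat bound by PPAR-RXR, searched as an exact match with 1 free base in the middle, was in 0 of 66 called higher genes and in 0.0593% of the tested ones.

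Transcripts of plasma proteins that are made mainly by the liver stood out by size. Of 22 tested 7 were called, all higher, and the 22 had a median log2 change of 2.08. Alb had 51.4, 141, 40.1, 28.4 and 60.7 RPM with FGF21 AAV, against 0, 0, 0, 0.271 and 0 RPM with control AAV. That is 789 reads against 1, a ratio of 830 (95% interval 149 to 32830 by exact binomial counting error). The fitted log2 change was 5.74 ± 0.47 (SE, adjusted p = 1.79e-07), 5.54 in the B cell-rich libraries, 5.64 in the rest and 6.00 with the adipocyte covariate. Efruxifermin fat had 37.2, 73.4, 78.6, 38.3 and 23.5 RPM and healthy fat 39.7, 17.4, 26.3 and 46.9 RPM. Control AAV fat of tumour mice was the one group of the 4 with almost none of it.

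Hpx, the heme carrier hemopexin, had 5.75, 87, 49.5, 14.3 and 18.7 RPM with FGF21 AAV, against 0, 0.378, 0.351, 0.541 and 0.39 RPM with control AAV (396 and 5 reads, log2 4.22 ± 0.71 SE, adjusted p = 0.0116). Ttr, the thyroid hormone carrier transthyretin, had 1.44, 74.1, 17.3, 15 and 18.7 RPM with FGF21 AAV and no read with control AAV. With 295 reads against none it was at least 103-fold higher over the group, taking 3 reads as the floor (adjusted p = 0.0334). Apoa1, the main protein of HDL, had 3.95, 55.2, 14.4, 18.4 and 22.6 RPM with FGF21 AAV, against 0, 0, 0, 3.25 and 0 RPM with control AAV (adjusted p = 0.0312). Ahsg, fetuin-A, had 4.31, 39.3, 11.9, 3.43 and 9.53 RPM with FGF21 AAV and 1 read with control AAV (adjusted p = 0.046). Of the 7 calls, that of Alb held without any 1 of the 10 libraries. Those of Ttr, Apoa1, Ahsg, Rbp4 and Cp were lost without FGF21 AAV library 2, 3, 4 or 5 and without control AAV library 1 or 2 (limma adjusted p = 0.0540 to 0.156), that of Ahsg also without control AAV library 3 (0.0611), and that of Hpx without FGF21 AAV library 3 (0.0518). FGF21 AAV library 2 was the highest for Alb, Hpx, Ttr, Apoa1 and Ahsg, and library 1 the lowest for Hpx, Ttr and Apoa1.

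Rbp4, given above, and Cp, the other called members, are also made by fat. Cp, the copper carrier ceruloplasmin, had 451, 436, 321, 550.2 and 585 RPM with FGF21 AAV, against 134, 103, 178, 149 and 236 RPM with control AAV (log2 1.57 ± 0.31 SE, adjusted p = 0.0316). Members named after their values were seen did not all behave alike. Apoa2, of HDL, gave log2 2.87 ± 0.72 (SE, adjusted p = 0.0625) and Fgb, a fibrinogen chain, 2.32 ± 0.72 (SE, adjusted p = 0.124). Serpina1b, an alpha-1-antitrypsin gene with near-identical copies between which reads cannot be placed with certainty, had 7.19, 43.8, 12.9, 9.97 and 0.953 RPM with FGF21 AAV, against 34.2, 13.2, 7.72, 0 and 17.2 RPM with control AAV, with overlap (log2 0.09 ± 0.95 SE, adjusted p = 0.978). Orm1, an acute phase glycoprotein also made in fat, had 63.6, 31.8, 32.7, 16.2 and 36.5 RPM with FGF21 AAV, against 2.37, 1.14, 1.05, 6.5 and 10.5 RPM with control AAV (log2 3.03 ± 0.63 SE, adjusted p = 0.0325). Of 20 acute phase genes 3 were called, all higher (Hpx, Cp and Orm1, median 1.14). Hpx and Cp count in both lists.

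Col5a3 and Timp4 were the called genes of the 3 matrix lists. Of 27 collagen and fibrillar matrix genes 1 was called, and 24 had a positive log2 change (median 0.87). Col5a3, a fibrillar collagen chain, had 143, 114, 88.1, 55.5 and 157 RPM with FGF21 AAV, against 14.7, 19.7, 22.1, 31.9 and 48.7 RPM with control AAV, without overlap (log2 2.01 ± 0.38 SE, adjusted p = 0.0281). Groups did not overlap for 9 of the 27, all higher with FGF21 AAV, where 2.71% of all genes did so. None of 16 basement membrane genes was called (9 higher and 0 lower at an unadjusted p under 0.05, 3 and 0 by DESeq2), and all 16 had a positive log2 change (median 1.18). Col4a2, a network collagen, stood at 1.40 ± 0.36 (SE, adjusted p = 0.0675). Timp4, an inhibitor of matrix proteases, was the 1 called gene of 17 proteases and inhibitors. It had 79.4, 206, 148, 125 and 134 RPM with FGF21 AAV, against 14.7, 9.08, 43.2, 36.5 and 87 RPM with control AAV (log2 2.17 ± 0.49 SE, adjusted p = 0.046), and only control AAV library 5 reached into the FGF21 AAV range.

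With the adipocyte covariate the medians of the 3 matrix lists were -0.12, 0.07 and 0.11, in the same order. Endothelial markers had 1 called member of 19, the water channel Aqp1, at 472, 455, 370.2, 366 and 473 RPM with FGF21 AAV, against 173, 98, 295, 148 and 171 RPM with control AAV (log2 1.35 ± 0.29 SE, adjusted p = 0.0366). None of 14 mural markers (median 1.04, 8 higher and 0 lower at an unadjusted p under 0.05, 2 and 1 by DESeq2) and none of 18 progenitor markers (median 0.29, 5 higher and 1 lower at an unadjusted p under 0.05, 0 and 1 by DESeq2) was called. None was called either among 20 epithelial markers (median 1.17, 10 higher and 0 lower at an unadjusted p under 0.05, 4 and 0 by DESeq2) and 10 red cell markers (median 1.34, 6 higher and 0 lower at an unadjusted p under 0.05, 3 and 0 by DESeq2). The same held for 11 neutrophil and mast cell (1 higher and 0 lower at an unadjusted p under 0.05, 0 and 0 by DESeq2), 13 Schwann cell (3 higher and 1 lower at an unadjusted p under 0.05, 1 and 0 by DESeq2) and 6 mesothelial markers (2 higher and 0 lower at an unadjusted p under 0.05, 0 and 0 by DESeq2). Among 20 macrophage markers the 1 called gene was Lpl, which adipocytes also express. The resident macrophage gene Cd163 gave log2 2.14 ± 0.63 (SE, adjusted p = 0.108).

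Dbt and Etfb were the called genes of the mitochondrial pathways listed. Of 22 genes of branched-chain amino acid catabolism 1 was called (median 0.84): Dbt, the acyltransferase core of the branched-chain dehydrogenase, at 96.7, 158, 94, 127 and 117 RPM with FGF21 AAV, against 38.5, 42.4, 63.9, 58.5 and 72.1 RPM with control AAV (log2 1.10 ± 0.26 SE, adjusted p = 0.0483). Of 19 genes of fatty acid oxidation 1 was called (median 0.60): Etfb, an electron carrier, at 251, 232, 229, 201 and 277 RPM with FGF21 AAV, against 92.6, 76.4, 86.3, 158 and 129.9 RPM with control AAV (log2 1.17 ± 0.27 SE, adjusted p = 0.0483). None of 29 citric acid cycle genes (median 0.24, 3 higher and 2 lower at an unadjusted p under 0.05, 0 and 0 by DESeq2) or 29 respiratory chain genes (median 0.10, 1 higher and 0 lower at an unadjusted p under 0.05, 0 and 0 by DESeq2) was called. None of 13 thermogenic genes was called (median -0.24, 1 higher and 0 lower at an unadjusted p under 0.05, 0 and 0 by DESeq2). Ucp1 had 15 reads in FGF21 AAV library 5 (4.76 RPM) and none in the other 9 libraries of the comparison, and Ppargc1a, a driver of mitochondrial biogenesis, gave 1.04 ± 0.74 (log2, SE, adjusted p = 0.516).

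Igf1, the growth factor, was even with FGF21 AAV at 306, 379.9, 385, 439.9 and 371 RPM, against 131, 89.3, 159, 119 and 308 RPM with control AAV, and missed the threshold (adjusted p = 0.0848). Cd59a, an inhibitor of the complement attack complex, was the 1 called gene of 17 in complement (log2 1.69 ± 0.34 SE, adjusted p = 0.0316). Gabarapl1, an autophagosome protein, was the 1 called of 19 FoxO, autophagy and lysosome genes, at 141, 132, 195, 131 and 146 RPM with FGF21 AAV, against 68.8, 30.6, 93, 52.8 and 57.7 RPM with control AAV (log2 1.36 ± 0.27 SE, adjusted p = 0.0312).

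None was called among 27 interferon genes (median 0.11, 2 higher and 2 lower at an unadjusted p under 0.05, 1 and 0 by DESeq2) and 21 cytokine receptor and STAT3 genes (median -0.03, above 0 with quantile scaling and without Gm42418, 2 higher and 3 lower at an unadjusted p under 0.05, 0 and 1 by DESeq2). None was called among 24 TGF-beta and activin genes (median 0.71, 4 higher and 1 lower at an unadjusted p under 0.05, 1 and 0 by DESeq2) and 18 glucocorticoid response genes (median 0.65, 6 higher and 1 lower at an unadjusted p under 0.05, 2 and 1 by DESeq2). The same held for 26 genes of the unfolded protein and integrated stress response (median -0.24, 3 higher and 1 lower at an unadjusted p under 0.05, 0 and 1 by DESeq2) and 18 of cholesterol synthesis (median 0.05, 0 higher and 1 lower at an unadjusted p under 0.05, 0 and 0 by DESeq2). Within the glucocorticoid list Hsd11b1, which activates the hormone, had 342, 96.5, 128, 151 and 373 RPM with FGF21 AAV, against 56.5, 34.8, 29.5, 14.3 and 31.6 RPM with control AAV (log2 2.59 ± 0.72 SE, adjusted p = 0.089). Tsc22d3, a classical target, gave log2 -0.85 ± 0.25 without overlap (SE, adjusted p = 0.101). Acvr1c, the activin receptor ALK7 that restrains lipolysis, had 188, 163, 96, 134 and 221 RPM with FGF21 AAV, against 49.8, 45.4, 81, 37.4 and 83.1 RPM with control AAV (log2 1.43 ± 0.34 SE, adjusted p = 0.0534).

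Only 8 genes were called lower. Mef2c, a transcription factor of muscle, endothelium and lymphoid cells, had 323, 152, 155, 147 and 112 RPM with FGF21 AAV, against 679, 790.3, 508, 708 and 595 RPM with control AAV. FGF21 AAV library 1, the one with the highest B cell score of its group, was the highest of the 5 and still below every control AAV library (log2 -1.96 ± 0.33 SE, adjusted p = 0.012). The muscle-rich control AAV library 4, with 13 of 18 B cell markers at 0, held as much as the rest of its group. The part of its muscle RNA in that level was not tested. The change was -1.50 in the B cell-rich libraries, -2.37 in the rest and -1.11 with the scores of B cells and muscle in the model. Mef2c was called in none of these fits, and the rest hold control AAV library 4 alone of its group. Ptp4a3, a phosphatase tied to cell migration, had 83, 18.4, 54.9, 45.8 and 17.2 RPM with FGF21 AAV, against 218, 187, 162, 396 and 96.3 RPM with control AAV (log2 -2.34 ± 0.44 SE, adjusted p = 0.0257). Its change was -1.22 in the B cell-rich libraries, -3.96 in the rest and -1.10 with the scores of B cells and muscle, and was called in none of these fits. Both stood on the list of node stroma and germinal centre genes, whose 10 tested members had a median of -1.98 and no other call (4 calls without control AAV library 4).

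Mreg, melanoregulin, had no read with FGF21 AAV and 4.75, 15.1, 4.91, 23.8 and 1.95 RPM with control AAV. At 0 against 157 reads it was at least 49.7-fold lower over the group (adjusted p = 0.0213). It had no read with efruxifermin either, and 8.09, 1.86, 3.6 and 5.13 RPM in healthy fat. Snai3, a zinc finger of the Snail family, likewise had no read with FGF21 AAV, against 6.65, 5.67, 1.4, 4.06 and 1.17 RPM with control AAV, at least 16.2-fold lower (adjusted p = 0.046). Eef1g, a subunit of the translation elongation factor, had 144, 67.1, 77.7, 99.4 and 70.5 RPM with FGF21 AAV, against 256, 241, 172, 152 and 181 RPM with control AAV (log2 -1.15 ± 0.26 SE, adjusted p = 0.046). Dennd4b, an activator of Rab proteins, gave log2 -1.64 ± 0.38 (adjusted p = 0.0483), and Arpc5l, a subunit of the actin-nucleating Arp2/3 complex, -1.28 ± 0.30 (SE, adjusted p = 0.0498).

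Hmmr, a spindle protein of dividing cells, had 0, 0, 0, 0 and 1.91 RPM with FGF21 AAV, against 23.3, 33.7, 18.9, 0.812 and 7.41 RPM with control AAV (log2 -3.28 ± 0.76 SE, adjusted p = 0.0474). In the libraries that were not B cell-rich its log2 change was -0.34, and control AAV library 4 lay inside the FGF21 AAV range. All 30 cell cycle genes had a negative log2 change (median -1.84), with 1 call, and 4 without control AAV library 4. In the libraries that were not B cell-rich that median was 0.00, and with the T and NK score as a covariate -0.56. All 36 ribosomal protein genes, whose near-identical pseudogenes can share reads, were below 0 too (median -0.65, no call, 0 higher and 18 lower at an unadjusted p under 0.05, 0 and 8 by DESeq2). Without control AAV library 4, 21 of the 36 were called (median -0.93), where 1015 of all 17013 genes tested were called, 591 of them lower. In the libraries that were not B cell-rich the median was 0.15. That fit holds control AAV library 4 alone of its group, the muscle-rich one. Over all genes tested the median in that fit was 0.34. With the scores of B cells and muscle in the model, the medians were -0.73 for cell cycle and -0.05 for ribosomal protein genes. The median over all genes tested was 0.13 there. With the T and NK score the ribosomal median was -0.16, and that over all genes tested 0.14. B cell markers had a median of -3.32 (0 higher and 15 lower at an unadjusted p under 0.05, 0 and 1 by DESeq2), T and NK cell markers -2.99 (0 higher and 14 lower at an unadjusted p under 0.05, 0 and 0 by DESeq2) and muscle markers -2.36 (0 higher and 1 lower at an unadjusted p under 0.05, 0 and 7 by DESeq2), all without a call. Without control AAV library 4, 14 of 18 B cell markers, 14 of 23 T and NK cell markers and 0 of 25 muscle markers were called.

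Of the 88 called higher genes 55 stood on none of the lists. Tspan4, a tetraspanin of migrating cells, had 52.8, 96, 99, 86.3 and 54.6 RPM with FGF21 AAV, against 11.9, 5.3, 18.9, 14.9 and 21.8 RPM with control AAV (log2 2.42 ± 0.36 SE, adjusted p = 0.00281). Healthy fat, at 15.5, 17.4, 21.9 and 16.5 RPM, was near control AAV fat, and FGF21 AAV against healthy gave log2 2.02 ± 0.38 (SE, adjusted p = 0.0831, not called). Efruxifermin fat, at 52.6, 86.7, 42.4, 83.5 and 42.6 RPM, was near FGF21 AAV fat. Adh1, an alcohol and retinol dehydrogenase, was even with FGF21 AAV at 154, 156, 134, 153 and 117 RPM, against 19.5, 20.1, 51.2, 37.1 and 78 RPM with control AAV (log2 1.96 ± 0.34 SE, adjusted p = 0.0125).

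Acot4, an acyl-CoA thioesterase of peroxisomes, had 24.8, 18.9, 13.4, 16.8 and 27.6 RPM with FGF21 AAV, against 1.42, 0.378, 9.82, 0.541 and 2.34 RPM with control AAV (log2 2.86 ± 0.58 SE, adjusted p = 0.0325). Tcaf2, a partner of TRP channels, had 9.7, 8.45, 18.3, 18.7 and 4.45 RPM with FGF21 AAV, against 0, 0.378, 3.16, 0 and 0 RPM with control AAV (log2 3.03 ± 0.65 SE, adjusted p = 0.0354). Rprml had 31.3, 4.47, 24.3, 9.66 and 68.6 RPM with FGF21 AAV, against 0, 0, 0.702, 1.9 and 0.39 RPM with control AAV. Its FGF21 AAV libraries spread widely and all lay above control AAV (log2 3.78 ± 0.79 SE, adjusted p = 0.0325).

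FGF21 AAV and efruxifermin were compared directly, since both comparisons with control AAV share its libraries. No gene was called (0.0% of those tested) by limma, with 945 (5.55%) at an unadjusted p under 0.05, and none by edgeR. DESeq2 called 14, none of which it called against control AAV. Without FGF21 AAV library 1 limma called 2, Bglap3 and Gm13570. Lpl averaged 6703 ± 1224 RPM with FGF21 AAV and 7809 ± 3727 RPM with efruxifermin (SD, n = 5 each here and below). Pck1 averaged 1194 ± 681 RPM with FGF21 AAV and 1488 ± 999 RPM with efruxifermin. For Npr3 the means were 47.6 ± 10.4 RPM with FGF21 AAV and 78.6 ± 33.8 RPM with efruxifermin, and for Alb 64.2 ± 44.4 RPM with FGF21 AAV and 50.2 ± 24.3 RPM with efruxifermin. The groups overlapped for all 4 genes, for Npr3 through efruxifermin library 3 alone. Among called genes other than Dbp and Per3, the wider gaps were at Tent5b, an RNA poly(A) polymerase, at 7.35 ± 5.61 RPM with FGF21 AAV and 1.25 ± 1.28 RPM with efruxifermin (log2 1.85 ± 0.60 SE, adjusted p = 0.707). Sncg averaged 116 ± 51.1 RPM with FGF21 AAV and 295 ± 155 RPM with efruxifermin (log2 -1.28 ± 0.42 SE, adjusted p = 0.707). Dennd4b averaged 17.6 ± 7.51 RPM with FGF21 AAV and 44.3 ± 17 RPM with efruxifermin (log2 -1.27 ± 0.38 SE, adjusted p = 0.70). These adjusted values do not show that the agents act alike.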

How the data were processed

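QuantSeq 3' RNA-seq libraries were aligned with HISAT2 to GRCm39 and counted per gene with HTSeq after cutadapt and FastQC, per the submitters' processing notes. Tool versions and the use of strand are not given in the sources used here. The authors deposited 1 table of RPM (reads scaled to a common total per library) for 24844 gene symbols and 19 libraries. A 3' tag is read once per transcript, so no length scaling enters. Values were multiples of what 1 read is worth, from which whole reads (within 0.05 of a whole number, below 1000 reads) and depth were recovered for count-based alternatives. Intervals and floors (3 reads) cover counting error only.

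The fit used log2(RPM + 1) in all 4 groups with limma 3.58.1 (trend, R 4.3.3), without covariates. It took the 17013 genes that reached an RPM of 1 in 4 or more libraries, with Benjamini-Hochberg adjustment over all of them. Fold changes on that scale understate those of low genes. No label states that each library is a separate mouse, so p-values measure the spread between these samples. Replicate numbers did not pair the groups. The 28 alternatives included edgeR 4.0.16 and DESeq2 1.42.0 on recovered reads. On simulated data for this comparison with 16151 genes, 2.99%, 28.4% and 65.2% of genes changed 2-, 4- and 8-fold were called, and 0 unchanged genes. The simulation drew each gene on its own, without lymphoid, muscle or adipocyte content that many genes share. It therefore does not give the rate of false calls in these libraries.

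The members and the 46 gene lists (873 genes) were chosen with earlier results of these data known. Named genes are 8 checks (Fgf21, Klb, Fgfr1, Ucp1, Adipoq, Pparg, Plin1 and Cd36), the 12 largest rises and the falls among called genes with a mean RPM of 5 or more, and called list members, of which 1 is not reported here. Where a list had fewer than 3 calls, its members of smallest p were added up to 3. Named too are the 10 calls that held in the most settings and the 5 of smallest p without overlap. RefSeq promoters carry GRCm38.p6 coordinates, another build than that of the reads.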

Additional observations from a re-analysis of the deposited data

Results flagged for a closer look

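Of 213 sets of 5 libraries tested, 28 had 1 library far from the other 4 by Dixon's criterion. For independent normal values chance gives about 1 in 20. RPM values need not be normal, a set with reads in 1 library alone is always flagged, and genes share libraries. The 28 can therefore not be read against that rate. FGF21 AAV library 2 stood high for the liver-type transcripts Alb (140.7 RPM), Ttr (74.09 RPM) and Ahsg (39.28 RPM), and without it Alb stayed called while Ttr (adjusted p = 0.0857) and Ahsg (adjusted p = 0.108) did not, as also without several other single libraries. In control AAV, library 4 was the one with any reads of Alb (0.271 RPM), Ahsg (0.271 RPM) and Apoa1 (3.249 RPM).

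Among other called higher genes, FGF21 AAV library 1 stood low for Nnat (627.5 RPM), and FGF21 AAV library 5 high for Slc1a5 (1151 RPM), Por (531.7 RPM) and Slc18b1 (80.68 RPM). FGF21 AAV library 3 was high for Gabarapl1 (194.5 RPM) and Scamp1 (131.7 RPM). FGF21 AAV library 2 was high for Plcb1 (79.56 RPM) and Nav3 (81.05 RPM) and low for Prrg3 (8.453 RPM). Control AAV library 2 was low for Dbp (11.73 RPM). Control AAV library 3 was high for Ltf (148.1 RPM), Acot4 (9.823 RPM), Tcaf2 (3.158 RPM) and Tent5b (0.702 RPM), and control AAV library 5 for Dpep1 (81.89 RPM) and B930086L07Rik (19.5 RPM).

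Among called lower genes, FGF21 AAV library 1 was high for Mef2c (322.8 RPM) and Arpc5l (107.8 RPM), and FGF21 AAV library 5 was the one of its group with reads of Hmmr (1.906 RPM). FGF21 AAV library 1 had the high T and NK cell score of its group (5.17), and control AAV library 4 had the low T and NK cell score (0.3166) and B cell score (0.7966) of its group. The part of these libraries' cell content in these levels was not tested.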

How the results depend on the processing

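Against control AAV the 96 calls numbered 55 with a pseudocount of 5, 14 with no filter, 198 with quantile scaling, 158 without Gm42418 and 60 with the 10 libraries alone, and 76 to 110 with a lower pseudocount, a stricter filter, TMM or median-of-ratios scaling. edgeR called 8 (7 higher), DESeq2 488 (303 higher and 185 lower, 62.1% higher against 91.7% in the limma fit), and array weights 2342 (1080 higher and 1262 lower, 46.1% higher). The count was 1 with the B cell and muscle scores in the model, 1 with the B cell-rich libraries alone and 0 in the rest. It was 2 with the adipocyte score and 21 with the T and NK score, both chosen after the data were seen. Leaving out 1 library at a time gave 7 to 1015 calls, 78.2% of them higher without FGF21 AAV library 1 (133 calls). The replicate numbers shared by the groups did not pair them (correlations from -0.0751 to 0.324), and the fit with the replicate block called 150, of which 90 were among the 96. Of 2686 pairs of a called gene and an alternative, 1322 stayed past the threshold, 1364 did not, and 0 changed direction. The 1364 include called genes to which DESeq2 gave no adjusted p, among them Hpx, Ttr and Apoa1. For the 85 called genes without overlap, fits on subsets of the libraries could not change direction. With the adipocyte score Klb (-0.48), Adipoq (-0.25), Pparg (-0.44) and Cd36 (-0.17), none of them called, turned sign. Adipoq and Pparg are themselves part of that score. Genes called against both control AAV and healthy numbered 2, but 1 by edgeR, 6 by DESeq2, 8 with array weights, 1 with the replicate block, 0 with the B cell and muscle scores, 0 in the B cell-rich libraries or the rest, 0 with the adipocyte score, 4 with the T and NK score and 0 to 5 with 1 library left out. Against efruxifermin and control AAV both, 0 to 2 genes were called with 1 library left out and 0 otherwise. The cause of these shifts was not tested. Depth limits low genes: over the group, 3 reads of FGF21 AAV libraries are 0.228 RPM.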

Other observations

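Called genes on none of the lists, named after their values were seen, included these transporters and enzymes, which are examples and not a tested group. Slc7a10, a transporter of small neutral amino acids in adipocytes, had 126, 199, 157, 179.8 and 196 RPM with FGF21 AAV, against 35.1, 21.2, 69.1, 57.1 and 112 RPM with control AAV (log2 1.72 ± 0.36 SE, limma adjusted p = 0.0325). Slc1a5, a glutamine transporter, had 829.9, 806, 728, 741 and 1151 RPM with FGF21 AAV, against 293, 233, 417, 239 and 533 RPM with control AAV (log2 1.36 ± 0.31 SE, adjusted p = 0.046). Slc5a3, the myo-inositol transporter, gave log2 1.80 ± 0.35 (adjusted p = 0.0312). Fads3, a fatty acid desaturase relative, had 109, 70.1, 73.8, 62.9 and 105 RPM with FGF21 AAV, against 19, 1.51, 15.4, 24.4 and 26.1 RPM with control AAV (log2 2.56 ± 0.49 SE, adjusted p = 0.0296). Hsd17b4, an enzyme of peroxisomal beta-oxidation, gave 1.57 ± 0.32, and Car5b, a mitochondrial carbonic anhydrase, 1.92 ± 0.40 (log2, SE, adjusted p = 0.0325 and 0.0325). Mgst1, a glutathione transferase, gave 2.14 ± 0.49, and Por, which passes electrons to cytochrome P450 enzymes, 1.44 ± 0.34 (log2, SE, adjusted p = 0.046 and 0.0483). With the adipocyte covariate the 8 log2 changes were 0.74, 0.40, 0.73, 0.89, 1.39, 0.59, 0.21 and 0.36 in the order named.

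Genes of signalling and cell structure were among them too. Fgfrl1, an FGF receptor relative without a kinase domain, had 134, 69.6, 115, 116 and 173 RPM with FGF21 AAV, against 19.9, 9.84, 45.3, 34.7 and 50.3 RPM with control AAV, without overlap (log2 2.04 ± 0.44 SE, adjusted p = 0.0366, 0.39 with the adipocyte covariate). Fzd4, a Wnt receptor, gave log2 1.89 ± 0.43 and Efna5, an ephrin, 2.05 ± 0.44 (SE, adjusted p = 0.046 and 0.0366). Lmna, which encodes the nuclear lamins A and C, had 154, 190.4, 171, 155 and 188 RPM with FGF21 AAV, against 56.5, 51.1, 92.6, 82.8 and 87.4 RPM with control AAV (log2 1.24 ± 0.27 SE, adjusted p = 0.039). Ahnak, a giant scaffold protein, gave 1.10 ± 0.25, and Actn4, an actin crosslinker, 0.89 ± 0.21 (log2, SE, adjusted p = 0.046 and 0.0483), the lowest log2 change among called higher genes.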
